A study of Mus musculus with 3 samples.

Results

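Ciita, the gene of the class II transactivator, and the 9 MHC class II genes Cd74, H2-Aa, H2-Ab1, H2-Eb1, H2-DMa, H2-DMb1, H2-DMb2, H2-Oa and H2-Ob were followed across 3 mouse macrophage cultures. The genes were found by name, as every probe that is not a control and whose gene name on the array is one of these, which gave 14 probes for 10 of the 34821 gene names on the array. All cultures were bone marrow-derived macrophages (BMDMs) of C57BL/6J mice, grown from marrow cells with M-CSF and analysed 20 h after the stimuli were added. The 3 conditions were CpG, a DNA oligonucleotide that triggers TLR9, IFN-γ together with a blocker of the IL-10 receptor (IFN-γ + αIL-10R), and all 3 agents together (Triple). The study compared them to look for genes particular to the Triple culture as candidates in the uptake of live cells. The mice were not described further, there was no culture without a stimulus, and no culture had IFN-γ without the IL-10 receptor blocker or CpG with IFN-γ alone.

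Each condition was measured on 1 one-colour array, so no value below has a biological replicate, no test of a condition was possible, and p-values are not given. The 3 comparisons also share their arrays. A fold is therefore given beside the spread of single spots of a probe printed repeatedly on an array, and beside the share of all measured genes that passed the same fold. That spread is technical and was measured within an array, so it leaves out differences between arrays in labelling, hybridisation or scaling. Carried over to a difference of single spots, 2 SD came to a log2 fold of 0.59 for signals under 100, 0.27 from 100 to 1000 and 0.15 over 1000. Of the 59305 spots on each array that were not controls, 46.0% in CpG, 44.8% in IFN-γ + αIL-10R and 44.4% in Triple were well above background, the lowest such signal was 23.8 to 26.7, and no spot was saturated.

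MHC class II molecules present peptides from the endocytic pathway to CD4+ T cells. Their α and β chains assemble in the endoplasmic reticulum with the invariant chain, encoded by Cd74, and in endosomes H2-DM exchanges the remnant of the invariant chain for peptide, while H2-O restrains H2-DM. CIITA does not bind DNA itself. It is recruited to the promoters of these genes by RFX, CREB and NF-Y, which sit on the conserved X and Y boxes, and it is best known as the factor that IFN-γ induces in macrophages to switch on the whole set. C57BL/6J mice carry a non-functional H2-Ea, so H2-Eb1 RNA in this strain has no partner chain from which to build the I-E molecule.

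The promoter sequences are shown because the X and Y boxes are the elements through which CIITA is known to act, and they were matched in some of the genes and not in others. RefSeq windows on GRCm38.p6, from 250 bases before to 50 after each annotated start, were at hand for 7 of the 10 genes, in 8 windows. Capitals mark the core of an X box, searched as AACNNATG, and the core of a Y box (an inverted CCAAT box), searched as GATTGG. Both were searched on both strands and the stretches are printed 5′ to 3′ on the gene's own strand. The X core with the Y core at most 40 bases after it on the same strand occurred in these 4 genes, with 19 to 22 bases between the cores:
H2-Eb1, chr17:34305768-34305822, plus strand: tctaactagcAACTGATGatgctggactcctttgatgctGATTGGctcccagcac
H2-DMb1, chr17:34153089-34153144, plus strand: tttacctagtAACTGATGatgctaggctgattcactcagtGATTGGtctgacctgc
H2-DMb2, chr17:34145118-34145173, plus strand: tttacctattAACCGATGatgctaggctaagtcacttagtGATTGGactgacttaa
H2-Ob, chr17:34238810-34238862, plus strand: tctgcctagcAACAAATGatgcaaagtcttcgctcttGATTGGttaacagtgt
In H2-Aa and H2-Oa only the Y core was matched near the start, and the stretch before it is shown for comparison:
H2-Aa, chr17:34287857-34287917, minus strand: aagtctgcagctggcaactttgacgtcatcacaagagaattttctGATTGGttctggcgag
H2-Oa, chr17:34092290-34092350, plus strand: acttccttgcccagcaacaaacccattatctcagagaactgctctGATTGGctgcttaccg

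Of all 32851 windows of this length in the table, 8.86% held the X core and 16.1% the Y core, but only 25 windows, or 0.0761%, held the X core followed by the Y core as above. Of the 8 windows of the class II genes, 4 held the X core, 7 the Y core and 4 both in this arrangement. H2-Eb2, a class II β-chain gene with no probe well above background here, was also among the 25. The Y core began between positions -91 and -44 from the start in the 6 genes shown. In H2-DMa the only match was a Y core at position -199 of the second of its annotated starts. The letters were chosen with these sequences in view and are strict, so a match is a description of the window and a missing match says only that these letters were not found.

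**Figure D1:**
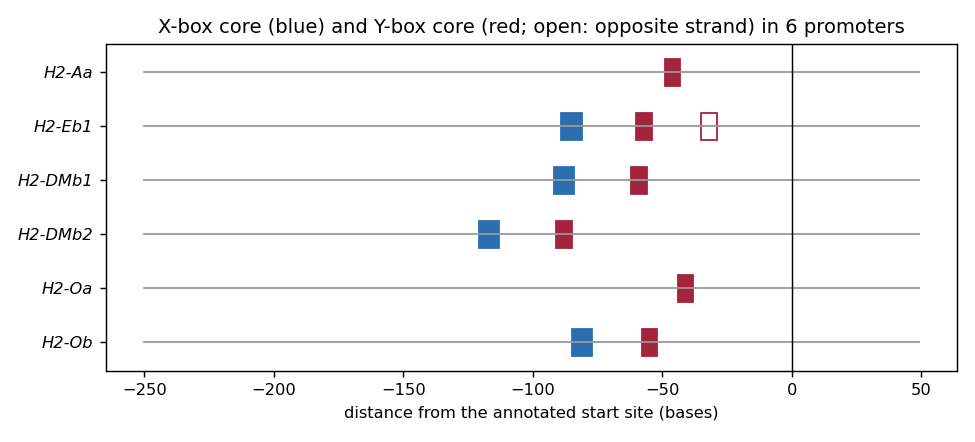
Positions of the X-box core (blue) and the Y-box core (red, open where it lies on the opposite strand) in the promoter windows of 6 class II genes. The horizontal axis gives the distance in bases from the annotated start, and each line is 1 gene. H2-Eb1, H2-DMb1, H2-DMb2 and H2-Ob hold the X core 19 to 22 bases before the Y core, and H2-Aa and H2-Oa only the Y core.

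Ciita was brightest with IFN-γ + αIL-10R and dimmest in Triple. Its single probe, designed on NM_001243760 at chr16:10526568-10526627 of mm9, gave a processed signal of 114 in CpG, 258 in IFN-γ + αIL-10R and 63.3 in Triple, each well above background. After each array was scaled to its 75th percentile, the signal in CpG was 2.31-fold lower than in IFN-γ + αIL-10R, and that in Triple was 3.99-fold lower. Triple was also 1.72-fold lower than CpG, a log2 fold of -0.79. All 3 differences were larger than 2 SD of single spots, a spread that leaves out differences between arrays. Normexp background correction was run with an offset of 50 added to every signal, which by itself shrinks the folds of dim signals. With it, the log2 folds became -0.84 (CpG) and -1.17 (Triple) relative to IFN-γ + αIL-10R, and -0.33 for Triple relative to CpG. Ciita is transcribed from several promoters whose transcripts differ at the 5′ end, and 1 probe cannot tell these apart. The spot lies in row 4 of the array, and 650 probes of like brightness in the first 48 rows had a median log2 fold of -0.05 between the Triple and IFN-γ + αIL-10R arrays, as did 4304 such probes in the other rows.

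**Figure D2:**
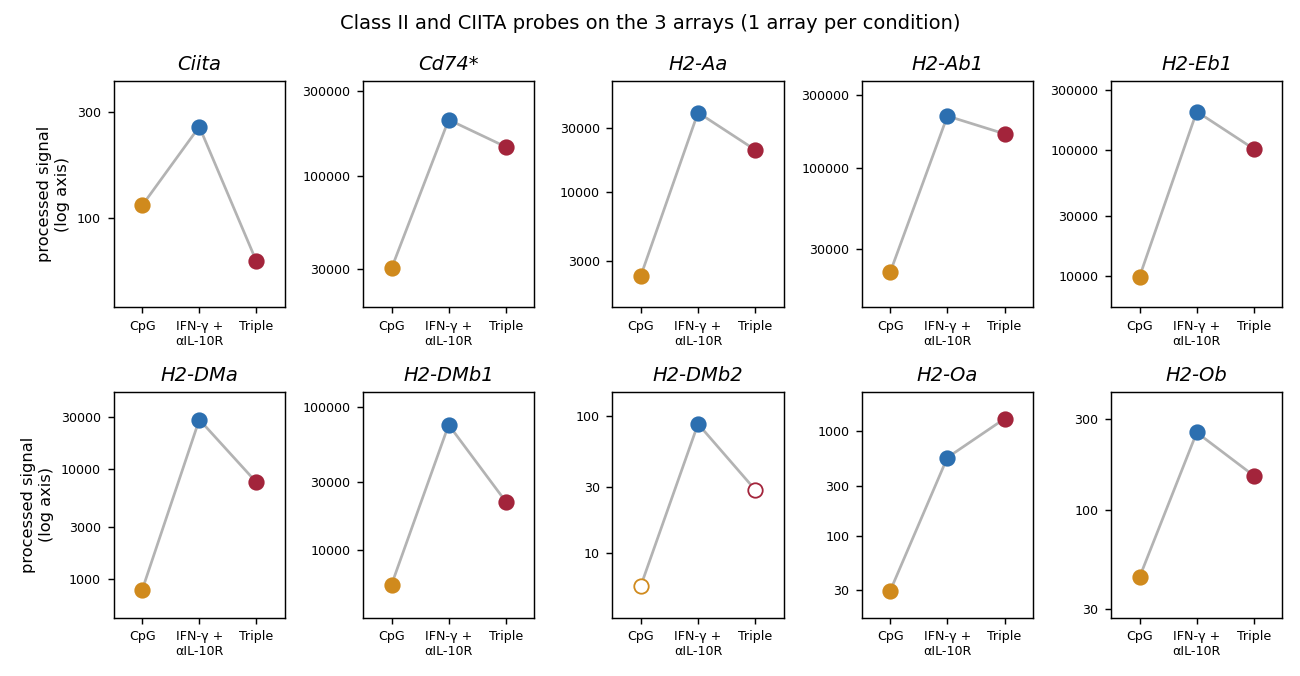
Processed signal (log axis, with its own range for each gene) of Ciita and the 9 class II genes in CpG, IFN-γ + αIL-10R and Triple, 1 array each, for the probe used for the gene. Open points were not well above background, and the asterisk marks Cd74, whose Triple spot was flagged for its local background. Ciita is lowest in Triple, though by less than 2-fold from CpG, whereas H2-Oa is highest there. Every other panel runs from CpG up to IFN-γ + αIL-10R with Triple between.

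The classical chains did not have the order of Ciita. H2-Aa, the α chain of I-A, had signals of 2335 in CpG, 39513 in IFN-γ + αIL-10R and 20687 in Triple (probe at chr17:34421285-34421344, mm9). Its signal in CpG was 17.2-fold lower than in IFN-γ + αIL-10R, whereas Triple was only 1.87-fold lower than IFN-γ + αIL-10R and 9.21-fold higher than CpG. H2-Ab1, the β chain of I-A, had 21210, 217861 and 166997 in the same order of conditions, and was 10.4-fold lower in CpG, 1.28-fold lower in Triple than in IFN-γ + αIL-10R, and 8.18-fold higher in Triple than in CpG.

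A second H2-Ab1 probe shares 51 positions with the first and is no independent measurement. It gave 24249, 195684 and 161915, which was 8.21-fold lower in CpG and 1.18-fold lower in Triple than in IFN-γ + αIL-10R. H2-Eb1, the β chain of I-E, had 9971 in CpG, 201431 in IFN-γ + αIL-10R and 101911 in Triple (chr17:34453075-34453134, mm9). It was 20.6-fold lower in CpG and 1.93-fold lower in Triple than in IFN-γ + αIL-10R, and 10.6-fold higher in Triple than in CpG. All 3 chains thus lay just short of the 2-fold limit or well within it between Triple and IFN-γ + αIL-10R, where Ciita was 3.99-fold apart. None had its lowest signal in Triple, where Ciita had its own. The step of Ciita from CpG down to Triple was 1.72-fold, short of 2-fold, and a log2 fold of -0.33 with normexp.

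Cd74, the invariant chain and peptide-loading chaperone, had signals of 30087 in CpG, 206390 in IFN-γ + αIL-10R and 145266 in Triple (chr18:60972075-60972132, mm9). The software flagged the Triple spot as an outlier of the local background, which was 54 there against an array median of 46, and the gene is therefore left out of the counts and medians below. With the spot kept, Cd74 was 6.98-fold lower in CpG and 1.39-fold lower in Triple than in IFN-γ + αIL-10R, and 5.02-fold higher in Triple than in CpG. It thus had the order of the classical chains. The spots of Cd74, H2-Ab1 and H2-Eb1 in IFN-γ + αIL-10R were each brighter than 99.8% of the spots on that array. Although none was saturated, whether folds are compressed at this brightness was not tested.

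Both subunits of H2-DM were lower in Triple by more than 2-fold. H2-DMa, the α subunit, had 802 in CpG, 28426 in IFN-γ + αIL-10R and 7629 in Triple (chr17:34274300-34274863, mm9). It was 36.1-fold lower in CpG than in IFN-γ + αIL-10R, the largest such fold among the genes followed here that were well above background on both arrays, and it was 3.65-fold lower in Triple than in IFN-γ + αIL-10R. H2-DMb1, the β subunit, had 5747, 75532 and 21895 (chr17:34297109-34297168, mm9), which was 13.4-fold lower in CpG and 3.38-fold lower in Triple than in IFN-γ + αIL-10R. Against CpG, the Triple signal was 9.89-fold higher for H2-DMa and 3.96-fold higher for H2-DMb1.

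A second probe for H2-DMb1, designed on another transcript, was not well above background on any array. H2-DMb2, a second β-subunit gene, was dim. Its signal was 87.4 in IFN-γ + αIL-10R, and the spots in CpG (5.75) and Triple (28.9) were not well above background. Set against the lowest signal well above background on the CpG array, its signal was at least 3.74-fold lower in CpG than in IFN-γ + αIL-10R. The Triple spot was brighter than the lowest such signal on its array (26.3) and kept its own value, which was 2.97-fold lower. These values became log2 folds of -0.88 and -0.61 with normexp background correction, short of 2-fold. Relative to IFN-γ + αIL-10R, the scaled Triple signal of H2-DMa was 27.4% and that of H2-DMb1 29.6%, and that of Ciita 25.1%, while H2-Eb1 stood at 51.7%, H2-Aa at 53.5%, H2-Ob at 60.5% or 25.1% depending on the probe, Cd74 at 71.9% and H2-Ab1 at 78.3%. With normexp the log2 fold of Ciita, -1.17, lay nearer to that of H2-Eb1 (-0.96) than to those of H2-DMa (-1.87) and H2-DMb1 (-1.74). The offset of 50 added there shrinks the fold of a dim gene such as Ciita and hardly changes those of the 3 brighter genes.

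The subunits of H2-O, the modulator of H2-DM, differed from each other. H2-Oa was 29.7 in CpG, 558 in IFN-γ + αIL-10R and 1309 in Triple (chr17:34232033-34232092, mm9), so that it was highest in Triple, unlike any other gene of the set. It was 19.1-fold lower in CpG than in IFN-γ + αIL-10R, 2.40-fold higher in Triple than in IFN-γ + αIL-10R, and 45.8-fold higher in Triple than in CpG, where its spot was just above the lowest signal called well above background. With normexp background correction the log2 folds for CpG relative to IFN-γ + αIL-10R and for Triple relative to CpG shrank from -4.25 to -2.73 and from 5.52 to 3.93. H2-Ob, its partner chain, had 44.5, 256 and 151 with the probe used (chr17:34380481-34380849, mm9). That was 5.85-fold lower in CpG and 1.65-fold lower in Triple than in IFN-γ + αIL-10R, and 3.54-fold higher in Triple than in CpG. With normexp these log2 folds shrank from -2.55 to -1.57, from -0.72 to -0.49 and from 1.82 to 1.07.

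The other H2-Ob probes gave a mixed account. One on the same transcript had 5.62 in CpG, not well above background, 224 in IFN-γ + αIL-10R and 54.9 in Triple, a 3.98-fold lower Triple signal than in IFN-γ + αIL-10R. The remaining one stayed near 6 and was not well above background on any array. The size of the difference of H2-Ob between Triple and IFN-γ + αIL-10R therefore depended on the probe, and its direction did not between the 2 probes that were measured.

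A gene was counted as higher or lower past 2-fold where the brighter spot was well above background, and 33597 genes were measured in this way on all arrays, 9 of the set among them. In CpG, 9 of these 9 were lower than in IFN-γ + αIL-10R and 0 were higher, where 3.18% of all genes were lower and 2.75% higher. In Triple, 4 of 9 (Ciita, H2-DMa, H2-DMb1 and H2-DMb2) were lower than in IFN-γ + αIL-10R and 1 (H2-Oa) was higher, beside 5.01% and 3.53% of all genes. Against CpG, 7 of 9 were higher in Triple and 0 lower, beside 4.08% and 4.55% of all genes, and the exceptions were Ciita and H2-DMb2. Relative to IFN-γ + αIL-10R, the median log2 fold of the 9 was -3.74 in CpG and -0.95 in Triple, and relative to CpG it was 3.03 in Triple. The 15891 genes that were well above background on each array had medians of -0.0016, -0.045 and -0.050 in these comparisons. A larger share of these 15891 than of all genes passed 2-fold in each direction, and 8 of the 9 were among them. In CpG, 4.84% were lower and 3.74% higher than in IFN-γ + αIL-10R. In Triple, 8.24% were lower and 5.13% higher than in IFN-γ + αIL-10R, and 5.99% were higher than in CpG. These shares are the closer comparison for the 9. The shares of all genes given below are over the 33597. As each array measured RNA of a whole culture, fewer cells that express a gene and less RNA per cell cannot be told apart.

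**Figure D3:**
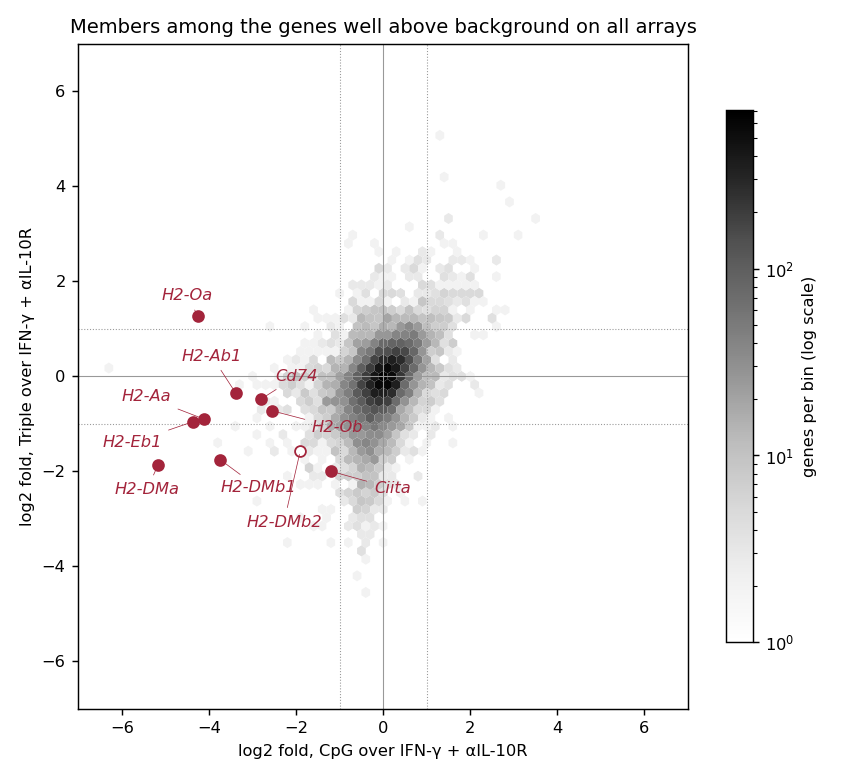
Log2 folds relative to IFN-γ + αIL-10R, of CpG on the horizontal axis and of Triple on the vertical axis. Both axes share the error of 1 array. Grey bins count the 15891 genes that were well above background on each array, dotted lines mark 2-fold, and red points are the 10 genes. H2-DMb2 is open because its spots in CpG and Triple were not well above background. The class II genes lie to the left of the cloud between log2 folds of -1.90 and -5.17, and Ciita lies at -1.21, to the right of them. It is also the lowest point, which it is not with normexp background correction or quantile normalization.

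Genes for the proteins that hold CIITA on the promoter did not pass 2-fold. Of 7 genes for RFX (Rfx5, Rfxap, Rfxank), NF-Y (Nfya, Nfyb, Nfyc) and CREB (Creb1), 0 passed 2-fold in any of the 3 comparisons. Of all genes, 2.75% to 5.01% passed 2-fold in a given direction of a comparison, so a count of 0 in 7 is near that share. The median log2 folds of the 6 that were well above background on every array lay between -0.09 and 0.04. Among these 6, Rfxap was lowest in Triple, with log2 folds of -0.763 relative to IFN-γ + αIL-10R and -0.909 relative to CpG. Both were larger than 2 SD of single spots. Relative to IFN-γ + αIL-10R, Nfyb was also lower in Triple (-0.438), and Rfxank, Nfya, Nfyc and Creb1 were higher by at most 0.252. Relative to CpG, Nfya (-0.194) and Nfyb (-0.255) were lower, and Rfxank, Nfyc and Creb1 higher by at most 0.245. Rfx5 was not well above background in CpG, with a scaled signal of 11.9 there, 33.1 in Triple and 36.3 in IFN-γ + αIL-10R. The level of Rfx5 in CpG was therefore at least 1.56-fold lower than in IFN-γ + αIL-10R, and a larger difference could not be seen. Of 12 genes of the IFN-γ pathway and the factors that act on Ciita, 5 were lower in CpG than in IFN-γ + αIL-10R, beside 3.18% of all genes. Among the 5 were Irf1 (14.7-fold), Irf2 (2.32-fold), Irf8 (3.89-fold) and Socs1, the feedback inhibitor of the JAK kinases (39.0-fold). None of the 12 was lower past 2-fold in Triple than in IFN-γ + αIL-10R, where Ciita was and 5.01% of all genes were. Short of 2-fold, Ifngr1, Irf2 and Usf1 were lower there, with log2 folds of -0.704, -0.584 and -0.375. The other receptor gene, Ifngr2, was higher (0.633), and the median over the 12 was 0.178. Whether these differences bear on Ciita was not tested. Irf1, whose product binds the IFN-γ-responsive promoter of Ciita, had a scaled signal of 132487 in IFN-γ + αIL-10R and 126466 in Triple, a difference of 1.05-fold. Whether folds are compressed at this brightness was not tested. A second, dim Irf1 probe was 1.34-fold higher in Triple than in IFN-γ + αIL-10R.

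In Triple, 3 of the 12 were higher than in IFN-γ + αIL-10R, beside 3.53% of all genes. They were the kinase gene Jak2 (2.40-fold), Spi1, which encodes PU.1 (2.16-fold), and Prdm1 (2.88-fold). Prdm1 encodes Blimp-1, a known repressor of Ciita in plasma cells and dendritic cells. Its scaled signal was 1131 in CpG, 445 in IFN-γ + αIL-10R and 1283 in Triple, high where Ciita was low. A part of Prdm1 in the level of Ciita was not tested. Against CpG, 5 of the 12 were higher in Triple, beside 4.08% of all genes. Among the 5 were Jak2 (3.84-fold), Irf1 (14.0-fold), Irf8 (a log2 fold of 2.20) and Socs1 (49.9-fold).

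The class I pathway, which NLRC5 controls through the same RFX and NF-Y platform, gave the nearest comparison. In CpG, 7 of 10 of its genes were lower than in IFN-γ + αIL-10R, beside 3.18% of all genes, with a median log2 fold of -1.68 over the 10. In Triple, 7 were higher than in CpG, beside 4.08% of all genes, with a median of 1.59. The exceptions were B2m, H2-K1 and H2-D1. Their scaled signals were 205547 or more on every array, and whether folds are compressed at this brightness was not tested. H2-K1 was 1.25-fold lower in CpG than in IFN-γ + αIL-10R with the probe used, and 1.62-fold lower with a dimmer second probe. Between Triple and IFN-γ + αIL-10R, 0 of 10 passed 2-fold, where 5.01% of all genes were lower and 3.53% higher. The median was 0.03, beside -0.95 for Ciita and the class II genes. Nlrc5 itself, the counterpart of Ciita, had scaled signals of 2271 in CpG, 9590 in IFN-γ + αIL-10R and 12408 in Triple, and was thus 1.29-fold higher in Triple than in IFN-γ + αIL-10R where Ciita was 3.99-fold lower. A second, dim Nlrc5 probe had the same order. With 1 array a condition, the difference between the class I and class II genes has no test.

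**Figure D4:**
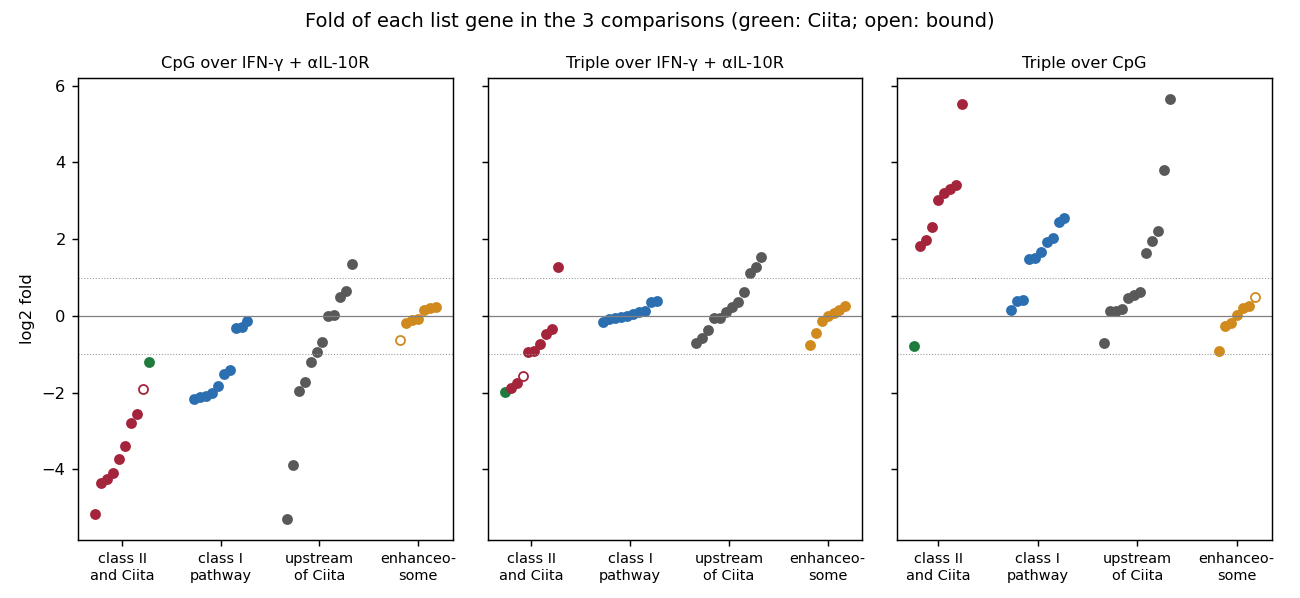
Log2 fold of every measured gene of 4 lists in the 3 comparisons, with 1 point a gene, sorted within its list. Red points are the class II genes, green is Ciita, blue the class I pathway, grey the genes upstream of Ciita and yellow the RFX, NF-Y and CREB genes. Points are open where only the brighter signal was well above background, and dotted lines mark 2-fold. Class I genes stay within 2-fold in the middle panel, where H2-Oa is the highest of the red and green points.

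Genes for the later handling of class II differed less uniformly. Of 7 measured genes for peptide processing, Ctsl, the gene of cathepsin L, was 2.16-fold higher in CpG than in IFN-γ + αIL-10R and 2.44-fold lower in Triple than in CpG, and Sppl2a, whose protease cleaves the membrane stub of the invariant chain, was 2.22-fold higher in Triple than in CpG. The other genes stayed within 2-fold, Ctss, the main invariant-chain protease, among them. Ctss, Ctsb and Lgmn had scaled signals of 184705 or more on every array, and whether folds are compressed at this brightness was not tested. Ifi30, the thiol reductase, had a flagged spot and was not counted. Of 6 genes for surface turnover and co-stimulation, Cd83 (2.51-fold), Cd86 (22.2-fold) and Cd40 (3.35-fold) were lower in CpG than in IFN-γ + αIL-10R, and all 3 were higher in Triple than in CpG. Cd83, which protects surface class II from degradation, was 3.05-fold higher in Triple than in IFN-γ + αIL-10R, and Cd40 was 9.72-fold higher. The class II genes H2-Ea-ps and H2-Eb2, and Btnl2, a butyrophilin-like gene of the same region, were not well above background on any array.

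Other antigen-presenting cells also express class II genes, so their markers were read beside these values. Of 8 macrophage markers, 7 were measured and all 7 were well above background on every array, with summed scaled signals of 599538 in CpG, 571757 in IFN-γ + αIL-10R and 532812 in Triple. Single markers differed within these sums. Relative to IFN-γ + αIL-10R, Cd14 was 9.84-fold higher in CpG and 16.8-fold higher in Triple, Itgam was 2.51-fold higher in CpG, Fcgr1 and Mertk were 2.08-fold and 2.48-fold lower in CpG, and Cd68 was 2.25-fold lower in Triple. Mertk was also 4.05-fold higher in Triple than in CpG. Of 7 B cell markers 4 were not well above background on any array, Ms4a1, Pax5 and Blk among them, and the sum was 1125 in CpG, 627 in IFN-γ + αIL-10R and 463 in Triple, of which Cd79b made up 786, 182 and 110. Of 7 T cell markers 4 were not well above background on any array. The others were above it on every array. In CpG, IFN-γ + αIL-10R and Triple, Cd4 had 1616, 1940 and 1853, Cd3e 842, 867 and 822, and Lck 92.7, 169 and 154. A second Cd4 probe was not well above background on any array. Neutrophil markers summed to 3767, 9433 and 4972, most of it in CpG from Elane (2786) and in IFN-γ + αIL-10R from Ly6g (7688). S100a8 was lowest where Ly6g was highest, with 291 in CpG, 55.7 in IFN-γ + αIL-10R and 527 in Triple. S100a9 was lowest in Triple, with 57.0 in CpG, 38.2 in IFN-γ + αIL-10R and 8.27, not well above background, in Triple. That was at least 2.12-fold lower in Triple than in CpG. With the probe used, Camp was above background in CpG (71.6) and Triple (142) only. A second Camp probe was above background on every array, with 37.8 in CpG, 44.5 in IFN-γ + αIL-10R and 84.1 in Triple.

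Dendritic cell markers differed between the arrays. Of the 7 measured, 3 were well above background in CpG, 4 in IFN-γ + αIL-10R and 6 in Triple, with summed scaled signals of 2364, 3503 and 4833. Flt3 was at background on all arrays. Zbtb46 reached 136 in Triple with the probe used, and its second probe was not well above background on any array. Clec9a was below background in CpG, 1960 in IFN-γ + αIL-10R and 155 in Triple, and Ccr7 was 313, 225 and 2950. Itgax, most of the sum in CpG, went the other way, with 1909 in CpG, 1244 in IFN-γ + αIL-10R and 1467 in Triple. Kit was above background in CpG (92.2) and Triple (49.4) only, and Xcr1 in Triple (62.0) only. Their part in the class II values was not tested.

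The genes whose pair of folds over IFN-γ + αIL-10R lay closest to that of Ciita were Atm, Mbd4, Fgfbp3, Dna2 and Zcchc24, at distances of 0.028 to 0.16 on the log2 scale among 11635 named genes. Atm, a kinase of the DNA damage response, had scaled signals of 265 in CpG, 601 in IFN-γ + αIL-10R and 151 in Triple. Within a distance of 0.5 of Ciita lay 59 genes. Closest to Cd74 were Gm4759, Gca, A530032D15Rik, Ifit2 and Vegfa, at 0.052 to 0.22, and 20 genes lay within 0.5. The CpG spot of Gm4759 was not well above background, so its place in this order rests on a bound. Ifit2, an interferon-induced gene, had 2918, 18210 and 13258. Likeness here rests on 3 arrays and 2 folds that share 1 of them.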

How the data were processed

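RNA of 3 BMDM cultures was hybridised by the authors, 1 array per condition, to a one-colour Agilent mouse array with probe positions on mm9. The deposited scanner files, made with Agilent Feature Extraction 10.10.1.1, hold intensity per spot, background-corrected and detrended by that software (processed signal). The deposited value table holds log2 values. For 99.9% of probes they equalled log2 of the processed signal minus a constant per array, within 0.01, and what the constant stands for is not given in the sources used here. It served as an alternative.

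Spots with an outlier flag were left out, and spots of a probe were averaged as log2. The 75th percentile was taken on each array from the 21229 probes that all 3 arrays measured well above background, and set equal across arrays, because on average 44.2% of probes were so on an array, under the limit of 50%. A gene took its probe of highest mean, with other probes given separately. A dim signal was raised to the lowest signal well above background on its array, and a fold against it is written "at least". Genes past 2-fold were counted. Scaled signals are at the common scale of the arrays.

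The genes and lists were chosen with earlier results of these data known. Named were the 10 genes with every probe, list genes past 2-fold, and the 5 genes closest to Ciita and to Cd74. The motif letters, the array name Sfpi1 for Spi1 and the rule that every spot of a probe be well above background were set after the data were seen. RefSeq tables of GRCm38.p6 held 27509 of the 29150 RefSeq accessions of the probes. No annotation of mm9 was used, so exon and UTR positions of probes are not given. The computation of folds was checked on simulated data with known changes, which is no test of the conditions. Python 3.11.15, pandas 2.3.3, numpy 2.4.6, R 4.3.3 and limma 3.58.1 were used. The number of arrays limits the precision. Single values of some list genes are not reported here.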

Additional observations from a re-analysis of the deposited data

How the results depend on the processing

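No paired analysis was possible because no condition had a second array. Of the 26 gene values, 21 passed 2-fold and 17 of these did so in every setting that gave a fold (14, or 13 for H2-DMb1, whose second probe was not well above background), with 0 changes of sign among the 26. The exceptions were Ciita (-0.84 in CpG) and H2-DMb2 (-0.88 in CpG, -0.61 in Triple) relative to IFN-γ + αIL-10R with normexp background correction, and H2-DMb1 (0.55) in Triple over CpG with the mean of all probes, which averages in a probe at background. The log2 fold of Ciita in Triple over CpG lay between -0.88 and -0.33. H2-Aa (-1.04) and H2-Eb1 (-1.09) passed 2-fold between Triple and IFN-γ + αIL-10R with scaling to 5 spike-in probes, H2-Eb1 (-1.04) relative to Actb, and H2-Ob (-1.99) with its second probe. The 4 genes lower there became 6 with spike-in scaling and 5 relative to Actb.

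The median log2 fold between CpG and IFN-γ + αIL-10R was -2.99 with normexp, -3.21 with the mean of all probes, -3.26 with the second probe, -3.56 with outlier spots kept, -3.95 with no filter and -3.92 with both arrays required above background. Between Triple and IFN-γ + αIL-10R it was -1.09 with spike-in scaling. In Triple over CpG it was 2.78 with normexp, 2.75 with quantile normalization, 2.79 with the second probe and 2.68 with outlier spots kept. At a 3-fold limit 0 genes were higher in Triple than in IFN-γ + αIL-10R, and at 1.5-fold 7 were lower there and 1 (Ciita) was lower in Triple than in CpG. With outlier spots kept, which adds Cd74, 10 of 10 were lower in CpG than in IFN-γ + αIL-10R and 8 were higher in Triple than in CpG.

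Calling a probe well above background on at least 50% of its spots, a rule added after the data were seen, changed no count of the 9 genes but gave 1948 in place of 1682 genes lower in Triple than in IFN-γ + αIL-10R and 1879 in place of 1529 lower in Triple than in CpG. Signals under 100, among them those of Ciita in Triple, of H2-DMb2 on all arrays and of the H2-O genes in CpG, carry the widest technical spread.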
